A study of Mus musculus with 10 samples.

Results

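Aldehyde dehydrogenases were examined in whole kidneys of 3-month-old mice that carried either 2 normal copies of Rragc (Rragc +/+, n = 5) or 1 normal copy and 1 copy with the S74N change, knocked in by CRISPR editing and present in every tissue (Rragc S74N/+, labelled KI/+, n = 5). RagC is a small GTPase that relays amino acid supply to the kinase mTORC1, and S74N is an activating form of it. Each library came from 1 kidney sample and was made by the QuantSeq 3′ method, which counts reads at the 3′ ends of polyadenylated transcripts, so that levels of different genes can be set side by side without dividing by length. The members are all genes of the table in the Aldh1a, 2, 3, 4, 6, 7, 8 and 9 classes. There were 14 of them among 13837 genes, and 4 of the 14 (Aldh3b1, Aldh3b2, Aldh3b3 and Aldh9a1) entered by the class rule alone. A further 4 aldehyde dehydrogenases of other classes were in the table and are given for comparison. All values are normalized read counts, that is, reads per gene after the scaling of each library by its size factor.

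Aldehyde dehydrogenases oxidize aldehydes to carboxylic acids with NAD or NADP. Aldh1a1, Aldh1a2 and Aldh1a3, the retinal dehydrogenases, turn retinal into retinoic acid, the ligand of the RAR and RXR nuclear receptors, and supply the last step of retinoic acid synthesis in the embryonic kidney and in other tissues. Aldh1a7 belongs to the Aldh1a class by its sequence but is not known to oxidize retinal well. Retinol reaches that step through carriers (Rbp4, Ttr) and through retinol dehydrogenases that form retinal, and retinoic acid is removed by Cyp26 enzymes. The other members, several of them mitochondrial, take part in the breakdown of amino acids, in the metabolism of choline and carnitine precursors, or in the removal of aldehydes formed from alcohol and lipids, and the proximal tubule is a known site of such pathways.

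Recovered reads per library ran from 6501552 to 7996087, and 1 read stood for 0.889 to 1.13 normalized counts. Rragc itself lay at 244 to 347 in the Rragc +/+ and at 189 to 248 in the Rragc S74N/+ kidneys. The edited codon is far from the 3′ end and the reads do not tell the alleles apart, so this level does not check the genotype. The nephron markers read here were all in the table at values above 0. No gene of the table has a mean below 5.64, so this is only a weak check of kidney identity. Transcripts of 4 Y-linked genes were present in each of the 10 kidneys. One library, Rragc S74N/+ mouse 5, stood apart for several of the genes described here (Aldh1a3, Ttr, Upk3a and Krt19), and results that rest on it are given with and without it. Library codes were grouped into 2 runs of numbers, with 2 Rragc +/+ mice and 1 Rragc S74N/+ mouse in the first run, and 3 and 4 mice in the second. The codes end in 38 to 40 in the first run and in 53 to 58 in the second, apart from Rragc S74N/+ mouse 5. That library, the one that stood apart, ends in 66 and was counted with the second run in every fit that uses the runs. What a run stands for is not given in the sources used here.

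In Rragc S74N/+ kidneys Aldh1a1, Aldh1a2 and Aldh1a7 of the Aldh1a class were higher, by 2.85-fold, 2.33-fold and 2.11-fold, and so was the abundant mitochondrial enzyme Aldh2, by 1.27-fold. None of the 14 members was lower past the threshold. The fit was made over 13197 genes that reached 10 normalized counts in 5 or more kidneys, with limma on log2(normalized count + 1) and Benjamini-Hochberg adjustment at 0.05. All 14 members entered it and 4 passed, each of them higher in Rragc S74N/+. The count of 4 fell to 2 without Rragc +/+ mouse 5 and to 1 in limma without the mean-variance trend. Over all genes tested, 3.69% passed in either direction, 1.67% higher and 2.02% lower in Rragc S74N/+. By class, 3 of 4 genes of the Aldh1a class passed, with a median log2 difference of 1.15, against 1 of 10 members of other classes, with a median of 0.10. Over all tested genes the median was 0.00. Of the members, 2 (Aldh1a2 and Aldh2) did not overlap between genotypes, with every Rragc S74N/+ kidney above every Rragc +/+ kidney, as 2.29% of tested genes did in that direction. Of the 4 aldehyde dehydrogenases outside the rule, 0 passed in this limma fit, and 0 had an unadjusted p under 0.05. Within the second run of library codes alone (3 Rragc +/+ and 4 Rragc S74N/+ mice) the log2 differences were 1.61 for Aldh1a1, 1.35 for Aldh1a2, 0.97 for Aldh1a7 and 0.37 for Aldh2, of which Aldh1a2 and Aldh2 passed (limma, adjusted p = 0.0474 and 0.0350) and Aldh1a1 and Aldh1a7 did not (0.0579 and 0.111). The first run held 1 Rragc S74N/+ mouse, too few for a value.

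**Figure D1:**
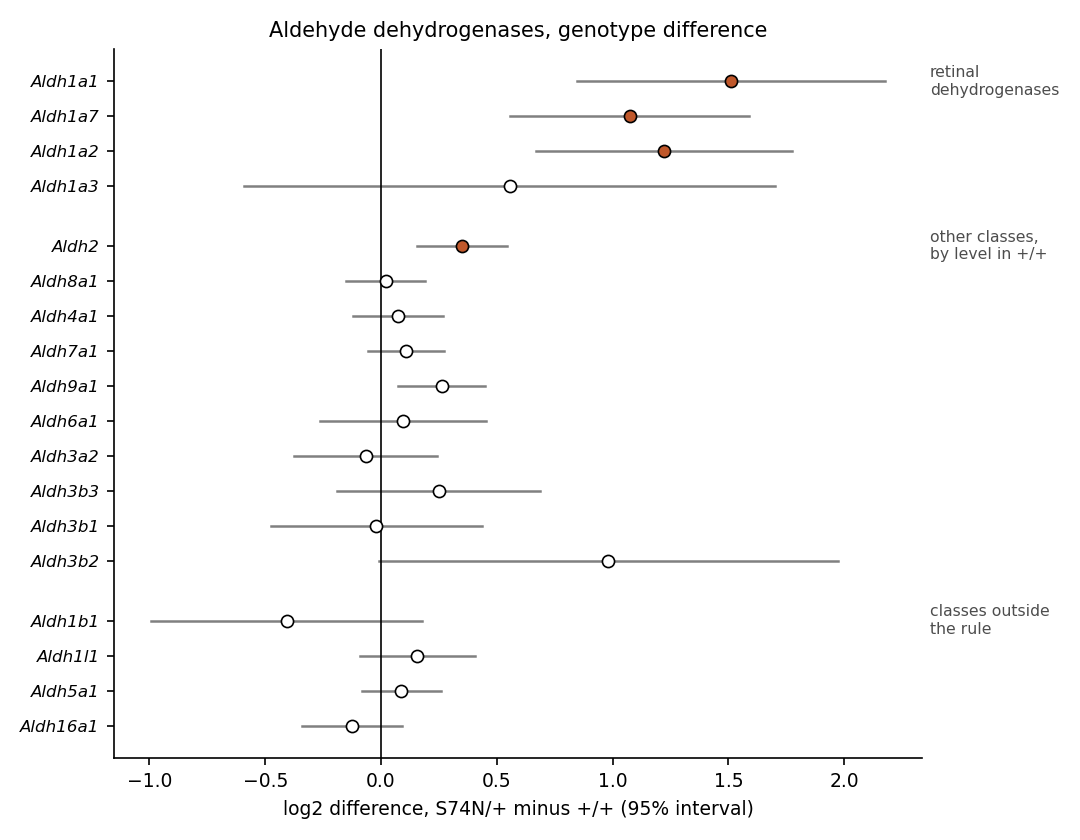
Log2 difference between Rragc S74N/+ and Rragc +/+ kidneys (x axis, n = 5 per genotype) for the 14 members and 4 other aldehyde dehydrogenases. Points are limma estimates and bars their 95% intervals, and filled points passed the adjusted threshold of 0.05. Aldh1a1, Aldh1a7, Aldh1a2 and Aldh2 are the filled points, all to the right of 0.

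The start regions of the 3 Aldh1a genes that rose are shown first, because Aldh1a1 and Aldh1a7 are neighbouring copies and the sequences show how far the copies are alike where transcription begins. They are the 250 bases before and the 50 bases after an annotated start, read from RefSeq on GRCm38.p6, 5′ to 3′ on the strand of the gene. This build differs from GRCm39, on which the reads were counted. Capitals mark the letters CCAAT, ATGCAAAT and TATAAA on either strand, which do not overlap each other here. The positions are chr19:20601718-20602017 on the plus strand for the Aldh1a1 start that matches Aldh1a7, chr19:20727507-20727806 on the minus strand for Aldh1a7, and chr9:71215539-71215838 on the plus strand for Aldh1a2.
Aldh1a1: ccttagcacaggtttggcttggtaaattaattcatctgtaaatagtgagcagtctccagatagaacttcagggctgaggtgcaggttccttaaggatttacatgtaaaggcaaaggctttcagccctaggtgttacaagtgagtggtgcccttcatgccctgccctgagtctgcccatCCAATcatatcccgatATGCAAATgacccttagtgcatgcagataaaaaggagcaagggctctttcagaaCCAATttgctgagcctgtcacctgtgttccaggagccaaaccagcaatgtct
Aldh1a7: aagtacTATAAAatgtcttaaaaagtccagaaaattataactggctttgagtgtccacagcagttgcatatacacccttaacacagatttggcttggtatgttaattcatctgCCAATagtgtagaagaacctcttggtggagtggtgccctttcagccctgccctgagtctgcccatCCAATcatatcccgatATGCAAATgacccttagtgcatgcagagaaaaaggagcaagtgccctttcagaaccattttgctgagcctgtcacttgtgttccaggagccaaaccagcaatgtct
Aldh1a2: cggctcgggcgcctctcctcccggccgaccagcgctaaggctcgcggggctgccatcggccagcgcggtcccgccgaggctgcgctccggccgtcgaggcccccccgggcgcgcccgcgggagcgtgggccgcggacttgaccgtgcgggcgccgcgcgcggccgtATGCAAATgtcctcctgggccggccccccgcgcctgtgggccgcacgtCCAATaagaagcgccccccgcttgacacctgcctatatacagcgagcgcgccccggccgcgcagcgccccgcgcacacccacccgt

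Over 285 aligned bases the Aldh1a1 and Aldh1a7 start regions were 77.5% identical, with an unbroken shared run of 65 bases. A second annotated Aldh1a1 start, farther upstream, was 65.3% identical to the Aldh1a7 region, with a longest shared run of 8 bases, and neither CCAAT nor ATGCAAAT was in that window. Both were therefore in only 1 of the 2 Aldh1a1 start regions, the one chosen for its match to Aldh1a7. CCAAT, the letters bound by NF-Y, lay 72 bases before the start in both Aldh1a1 and Aldh1a7 and 36 bases before it in Aldh1a2, and 37.4% of the 32841 start regions of this length in the table hold it on either strand. ATGCAAAT, the octamer that POU factors bind, lay 56 bases before the start in Aldh1a1 and Aldh1a7 and 84 bases before it in Aldh1a2, against 1.74% of all start regions. That motif was searched only after the sequences had been read, and in Aldh1a1 and Aldh1a7 it lies within their shared run of 65 bases. Its share of all start regions is therefore no test of these genes. It also lay 58 bases before the start of Aldh8a1, whose level did not pass the test. It was in none of the other 12 member and comparison start regions read here. CACGTG, the core of the sites bound by TFEB and other basic helix-loop-helix factors, was in none of these 3 windows and in 7.15% of all start regions. Among the aldehyde dehydrogenases whose start region was read, Aldh2 not being one of them, it was found only for Aldh3a2, 30 bases before the start. AGGTCA, the repeat unit of many nuclear receptor elements, was in none of the 3 windows and in 16.3% of all. Of the 18 aldehyde dehydrogenases, 14 had a start region that was read here. None was read for Aldh1a3, Aldh2, Aldh3b2 and Aldh7a1, so nothing is known here of motifs in them.

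Aldh1a1, a cytosolic retinal dehydrogenase, was at 30.1, 20.5, 15.9, 40.7 and 25.6 in the 5 Rragc +/+ kidneys. In the Rragc S74N/+ kidneys it was at 54.1, 84.6, 38.9, 72.2 and 170.3. The highest Rragc +/+ kidney lay just above the lowest Rragc S74N/+ kidney, and mouse 5 gave the top value. The log2 difference was 1.51 ± 0.32 (SE, n = 5 per genotype), with an interval of 0.84 to 2.18 (limma, adjusted p = 0.00947). Without mouse 5 it was 1.21 (limma, adjusted p = 0.0133).

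Aldh1a7, a rodent gene next to Aldh1a1 on chromosome 19 and a close copy of it, was at 47.5, 39.1, 73.7, 64.3 and 48.0 in Rragc +/+. The Rragc S74N/+ values were 88.2, 116.1, 69.4, 117.6 and 219.9. Only the lowest Rragc S74N/+ kidney, that of mouse 3, fell within the Rragc +/+ range. The log2 difference was 1.07 ± 0.25, with an interval of 0.56 to 1.59 (limma, adjusted p = 0.0176), and 0.84 without mouse 5 (limma, adjusted p = 0.0255). Without Rragc +/+ mouse 5 the call was lost (difference 1.04, limma adjusted p = 0.0555).

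The coding sequences of Aldh1a1 and Aldh1a7, each of 1506 bases in GENCODE vM21, were 91.6% identical. The aligner allowed several hits per read, so reads alike in both genes could be misplaced or lost. Near the 3′ ends, where QuantSeq reads fall, the copies differed more. Of the 451 windows of 50 bases in the last 500 bases of Aldh1a1, 7 (1.55%) matched Aldh1a7 with up to 3 mismatches. The sum of Aldh1a1 and Aldh1a7 was read as well. It does not depend on how reads are placed between them, but it does not bring back lost reads. It was 59.6 to 105 in Rragc +/+ and 108 to 390 in Rragc S74N/+ kidneys, with no overlap, and the difference of mean log2 sums was 1.22 (two-sided exact permutation test over all splits of the mice, p = 0.00794, the smallest this design can give). Aldh1a1 made up 32.9 ± 8.7% of that sum in Rragc +/+ and 39.5 ± 3.2% in Rragc S74N/+ (SD, n = 5). The shares were not separated by the test (exact permutation, p = 0.0873).

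Aldh1a2, the main retinal dehydrogenase of the embryo, was the least abundant of the class. It was at 14.6, 9.78, 10.2, 11.8 and 6.41 in Rragc +/+. In the knock-in kidneys the values were 25.6, 19.5, 27.3, 21.7 and 34.1. The genotypes were fully separated. These values rest on 6 to 16 reads per Rragc +/+ library and 21 to 35 per Rragc S74N/+ library. This came to a log2 difference of 1.22 ± 0.26, with an interval of 0.67 to 1.78 (limma, adjusted p = 0.0116). Of the 4 called members it alone kept its call in limma without the trend (adjusted p = 0.00948), and it was still called without mouse 5 (difference 1.12, limma adjusted p = 0.0353).

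Aldh1a3, the retinal dehydrogenase of several lining epithelia, did not pass. It was at 35.6, 16.0, 42.0, 18.2 and 81.1 in Rragc +/+. Rragc S74N/+ kidneys had 24.7, 64.1, 28.4, 21.7 and 258.8. Apart from mouse 5 of each genotype, which gave the top value of its group, the values of the genotypes overlapped. Its log2 difference was 0.56, with an interval of -0.59 to 1.70 (limma, adjusted p = 0.706), and it was -0.04 without Rragc S74N/+ mouse 5 (limma, adjusted p = 0.975). Summed over the class, the 4 Aldh1a genes gave 85.4 to 161 in Rragc +/+ and 164 to 683 in Rragc S74N/+, where mouse 5 gave 683 and the next highest kidney 284. As a share of the reads of all 14 members this was 0.482 to 0.934% in Rragc +/+. The Rragc S74N/+ shares were 0.829, 1.36, 0.805, 1.15 and 3.40%. The shares overlapped, and 2 of the 4 Rragc S74N/+ kidneys other than that of mouse 5 lay within the Rragc +/+ range.

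**Figure D2:**
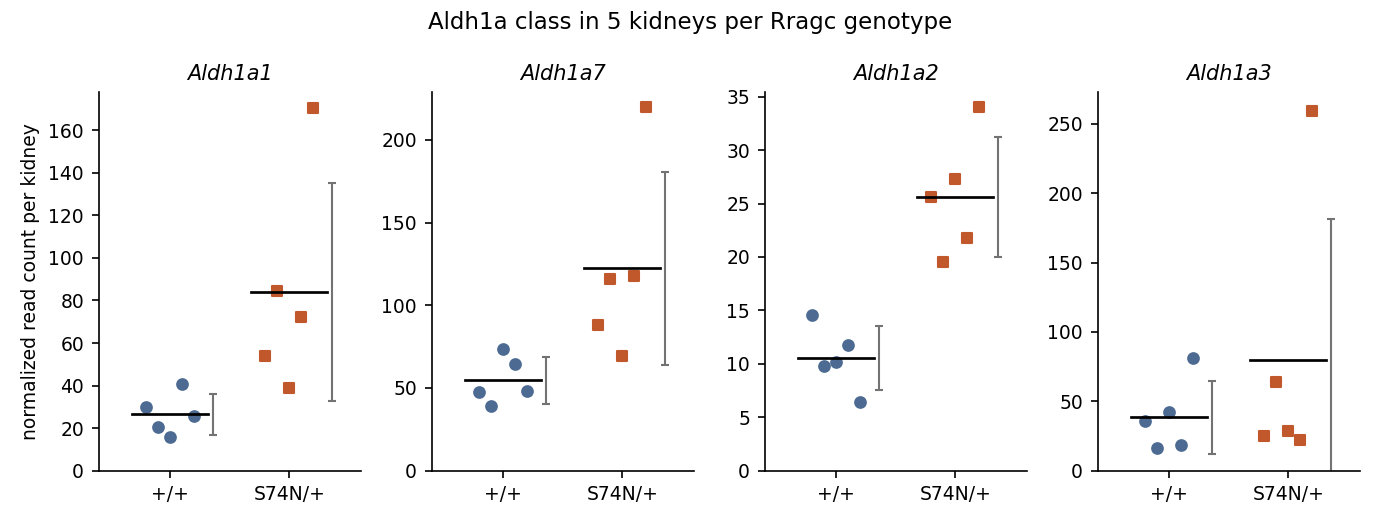
Normalized read counts of the 4 genes of the Aldh1a class (y axes, each from 0) in 5 Rragc +/+ (circles) and 5 Rragc S74N/+ kidneys (squares), with the mean (line) and ± 1 SD (bar, cut at 0 for Aldh1a3). Aldh1a2 is separated between genotypes, Aldh1a1 and Aldh1a7 overlap by 1 kidney of each genotype, and Aldh1a3 overlaps throughout except for 1 Rragc S74N/+ kidney at 258.8.

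Aldh1a3 in that kidney ran with some transcripts of the papilla, its covering epithelium and the urothelium, picked after their values had been seen. In the same mouse Upk3a, a uroplakin of the urothelium, was at 220 against 33.6 to 82.7 in the other Rragc S74N/+ kidneys. Krt19, a keratin of lining epithelia, was at 96.3 against 14.2 to 24.2. The carrier Ttr was at 4588 against 993 to 1348. Stromal transcripts were high there too, with a summed level of 5 markers of 2076 in mouse 5 against 804 to 1040 in the other Rragc S74N/+ and 936 to 1135 in the Rragc +/+ kidneys. Among them Col1a1, a collagen chain, was at 729 and Dcn, which encodes decorin, at 818. Thick ascending limb markers summed to 13116 in mouse 5, against 20077 to 21455 in the other Rragc S74N/+ kidneys. Principal cell markers summed to 3032 there, against 1833 to 2264. Rragc +/+ mouse 5, which had the highest Aldh1a3 of its group, also had the highest Krt19 (21.4) and, within that group, the second highest Upk3a (45.9). The summed level of the 5 papilla and medulla markers was 750 to 769 in Rragc +/+ and 863 to 1422 in Rragc S74N/+. Of the 5 markers 1, Krt8, passed (log2 difference 0.51, limma adjusted p = 0.00341). Akr1b3, also of the 5, had a difference of the other sign and did not pass (-0.47, limma adjusted p = 0.702). It was at 40.9 in Rragc S74N/+ mouse 5, against 33.6 in mouse 4 of that genotype and 40.6 in Rragc +/+ mouse 5. The part of these tissues in the levels of the Aldh1a genes was not tested. In whole kidney, fewer or more cells of a type and less or more RNA per cell cannot be told apart.

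**Figure D3:**
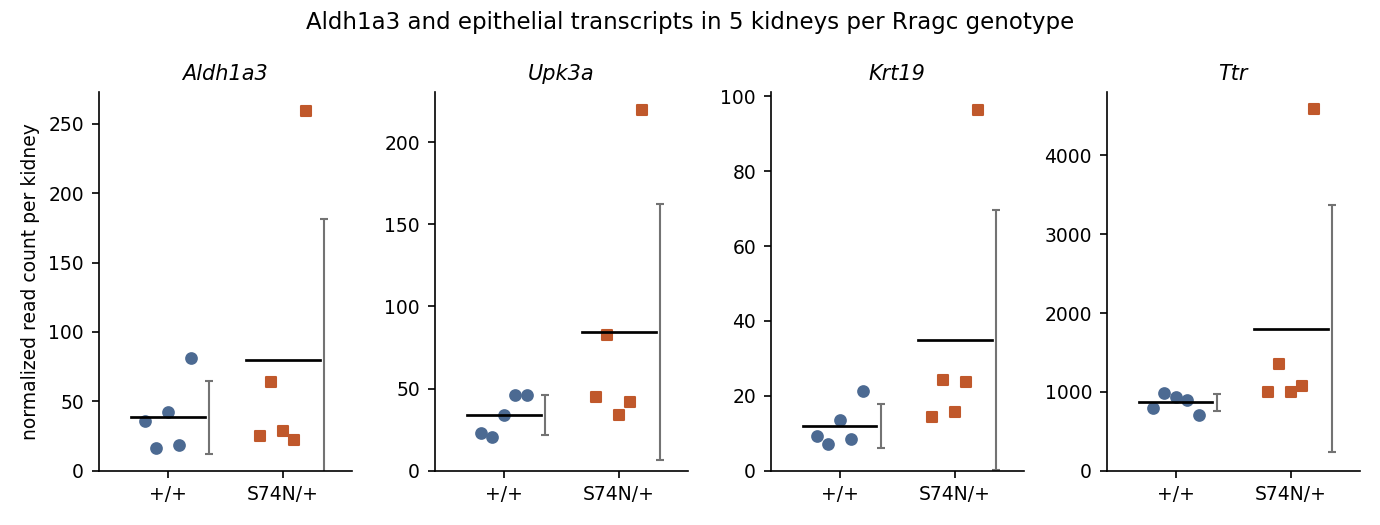
Normalized read counts of Aldh1a3, Upk3a, Krt19 and Ttr (y axes, each from 0) in 5 Rragc +/+ (circles) and 5 Rragc S74N/+ kidneys (squares), with the mean (line) and ± 1 SD (bar, cut at 0 where it runs below). In all 4 panels 1 Rragc S74N/+ kidney, that of mouse 5, lies far above the rest.

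Aldh2, which clears acetaldehyde and lipid aldehydes in mitochondria, was by far the most abundant member, with 46.0 to 53.7% of the reads of the 14 members in Rragc +/+ kidneys. It was at 10334, 8783, 9174, 7843 and 8165 in Rragc +/+. Values in Rragc S74N/+ were 12931, 10462, 11082, 10688 and 11184. All 5 Rragc S74N/+ kidneys lay above the highest Rragc +/+ kidney, by a narrow margin. The log2 difference was 0.35 ± 0.09, with an interval of 0.16 to 0.54 (limma, adjusted p = 0.0415). This call stood near the threshold. It held without Rragc +/+ mouse 1 or without Rragc S74N/+ mouse 2, and was lost without any of the other 8 mice, with limma adjusted p from 0.0550 to 0.141 and differences from 0.30 to 0.37.

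Aldh9a1, which makes a carnitine precursor and handles aminobutyraldehyde, was the next nearest to a call. It was at 1277, 1522, 1160, 1291 and 1354 in Rragc +/+. In Rragc S74N/+ it was at 1834, 1602, 1454, 1451 and 1577. The 2 lowest Rragc S74N/+ kidneys fell below the highest Rragc +/+ kidney. Its log2 difference was 0.26, with an interval of 0.07 to 0.45 (limma, adjusted p = 0.135). With the run of codes added to the model it was 0.30 (limma, adjusted p = 0.0256).

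The other abundant members belong to amino acid breakdown. Aldh8a1, which acts in the kynurenine pathway, was at 2149 to 2451 in Rragc +/+ and 1989 to 2529 in Rragc S74N/+, a log2 difference of 0.02 with an interval of -0.15 to 0.19. Aldh4a1, which finishes proline breakdown, was at 1798 to 2120 and 1731 to 2519 (difference 0.07, interval -0.12 to 0.27). Aldh7a1, of lysine breakdown and betaine synthesis, was at 1261 to 1456 and 1387 to 1656 (difference 0.11, interval -0.06 to 0.27). For these 3 genes the interval leaves out a change of the size measured for any of the raised Aldh1a genes. Aldh6a1, of valine and pyrimidine breakdown, was at 1082 to 1529 and 887 to 2005 (difference 0.10, interval -0.26 to 0.46), and spread most widely among the Rragc S74N/+ kidneys. Aldh3a2, the fatty aldehyde dehydrogenase, was at 270 to 366 and 246 to 432 (difference -0.07, interval -0.37 to 0.24). In both Aldh6a1 and Aldh3a2, Rragc S74N/+ mice 1 and 2 lay above and mouse 3 below every other kidney of either genotype.

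**Figure D4:**
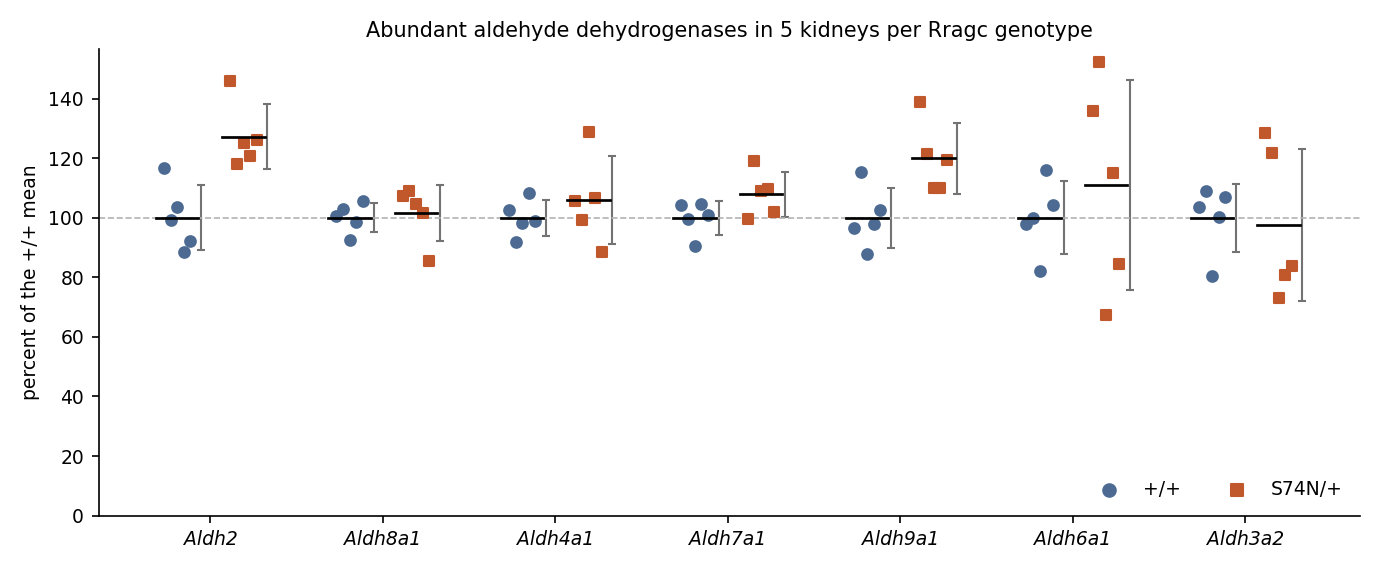
Normalized read counts of the 7 abundant members as a percent of their Rragc +/+ mean (y axis from 0), in 5 Rragc +/+ (circles) and 5 Rragc S74N/+ kidneys (squares), with the mean (line) and ± 1 SD (bar). Genes run from the highest to the lowest level, and the 5 Rragc S74N/+ kidneys lie above all Rragc +/+ kidneys for Aldh2 alone.

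The 3 members of the Aldh3b class, membrane enzymes for medium and long aldehydes, were low. Aldh3b3 was at 25.7 to 39.3 in Rragc +/+ and 30.5 to 62.6 in Rragc S74N/+ (log2 difference 0.25, interval -0.19 to 0.69), and Aldh3b1 at a mean of 29.8 ± 5.4 and 29.7 ± 7.2 (SD, n = 5, difference -0.02, interval -0.48 to 0.43). Aldh3b2 was at 2.14 to 13.6 and 6.31 to 26.3, from 2 to 27 reads per library, and its difference of 0.98 had an interval of -0.01 to 1.97 (limma, adjusted p = 0.332). This interval holds both 0 and the difference measured for Aldh1a7. Aldh3b2 and Aldh3b3 are also close copies, with 90.5% identical coding sequences, and 10.2% of the 50-base windows near the end of Aldh3b2 matched Aldh3b3, so their values are uncertain.

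In the order of levels in Rragc +/+ kidneys, Aldh2 (mean 8860) was followed by Aldh8a1 (2323) and Aldh4a1 (1955), each separated from the next by non-overlapping values. Aldh7a1 (1393), Aldh9a1 (1321) and Aldh6a1 (1317) overlapped and were not ordered beyond their spread. Aldh3a2 (336) stood alone below them. The low members Aldh1a7 (54.5), Aldh1a3 (38.6), Aldh3b3 (34.2), Aldh3b1 (29.8) and Aldh1a1 (26.6) overlapped with their neighbours, above Aldh1a2 (10.6) and Aldh3b2 (6.55). The 3 Aldh1a genes that rose thus came from the low end of the order, and Aldh2 from its top.

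Whether the raised Aldh1a genes rose more than Aldh2 was read as a ratio within each mouse, for the 6 pairs among the 4 called genes. The pairs were taken only from called genes and after the values had been seen. The p-values below therefore describe these pairs and are no test of the class. The log2 ratio of Aldh1a2 to Aldh2 was higher by 0.87 in Rragc S74N/+ (two-sided exact permutation test, p = 0.00794, adjusted over the 6 pairs 0.0476). For Aldh1a1 to Aldh2 the difference was 1.16 (exact p = 0.0397, adjusted 0.119) and for Aldh1a7 to Aldh2 0.72 (exact p = 0.0635, adjusted 0.127), and neither passed. Among the 3 Aldh1a genes themselves no pair passed. The largest of those differences, Aldh1a1 to Aldh1a7, was 0.44 (exact p = 0.0952, adjusted 0.143).

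Upstream and downstream of the retinal dehydrogenases, 5 lists of retinoid genes (carriers, interconversion of retinol and retinal, ester storage, retinoic acid breakdown, and binding proteins with receptors and corepressors) held 29 tested genes. Of these 4 passed, all higher in Rragc S74N/+, and 25 did not. The carrier Rbp4, 1 of the 4, had entered the fit only through its Rragc S74N/+ values and so had to differ. Of the other 28 genes 3 passed, against 1.67% of all tested genes that passed as higher, and these 3 act at the step between retinol and retinal. The count with Rbp4 fell to 2 without any one of Rragc +/+ mice 2, 3, 4 and 5 or Rragc S74N/+ mouse 2. The 2 left were Rbp4 and Adh1, each called whichever mouse was left out. Of the 28 genes other than Rbp4, Adh1 was then the only one to pass.

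Rbp4, which carries retinol in plasma, was barely detected in Rragc +/+ kidneys, at 7.30, 6.23, 5.67, 5.36 and 4.27. In Rragc S74N/+ it was at 16.1, 22.3, 10.51, 32.6 and 60.3. The genotypes did not overlap. Only its Rragc S74N/+ values reached the filter of 10 normalized counts. As a description with no test, the log2 difference was 1.89, and 1.57 without mouse 5. The other 2 carriers read here did not pass. Ttr, the partner of Rbp4 in plasma, was at 711 to 980 and 993 to 4588, with no overlap. Its log2 difference was 0.76 (limma, adjusted p = 0.204), and 0.35 without mouse 5 (limma, adjusted p = 0.106). Stra6l, a transporter that binds Rbp4, differed by 0.14 (limma, adjusted p = 0.631).

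Of 13 enzymes that interconvert retinol and retinal, 3 rose. Adh1, an alcohol dehydrogenase that also oxidizes retinol, was at 8589, 7808, 7910, 6903 and 7469 in Rragc +/+. In Rragc S74N/+ it was at 10385, 9076, 11970, 11431 and 9905. The groups did not overlap, and the log2 difference was 0.44 ± 0.09 (limma, adjusted p = 0.00821). Rdh5 was at 59.6 to 83.6 and 88.5 to 127 (difference 0.56, limma adjusted p = 0.0383), with no overlap. Rdh16 was at 491 to 686 and 628 to 1049 (difference 0.48, limma adjusted p = 0.0479). The calls of Rdh5 and Rdh16 were fragile. When 1 mouse was left out at a time, Adh1 kept its call 10 times out of 10, Rdh16 in 3 and Rdh5 in 2, with limma adjusted p up to 0.132 and 0.0933. In limma without the trend none of the 3 passed, Adh1 having an adjusted p of 0.0542. Rdh16f2, a close relative of Rdh16 whose reads may be shared with it, was at 204 ± 31.3 and 344 ± 131 (SD, n = 5, difference 0.67, limma adjusted p = 0.122). Without Rragc S74N/+ mouse 3 it was 0.92 and passed (limma, adjusted p = 0.00153), and DESeq2 on the recovered reads called it as well (adjusted p = 0.018). Rdh10, the retinol dehydrogenase needed in the embryo, was at 421 to 527 and 443 to 550 (difference 0.10), and Dhrs3, which turns retinal back to retinol, at 1288 to 1645 and 1246 to 1893 (difference 0.10).

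**Figure D5:**
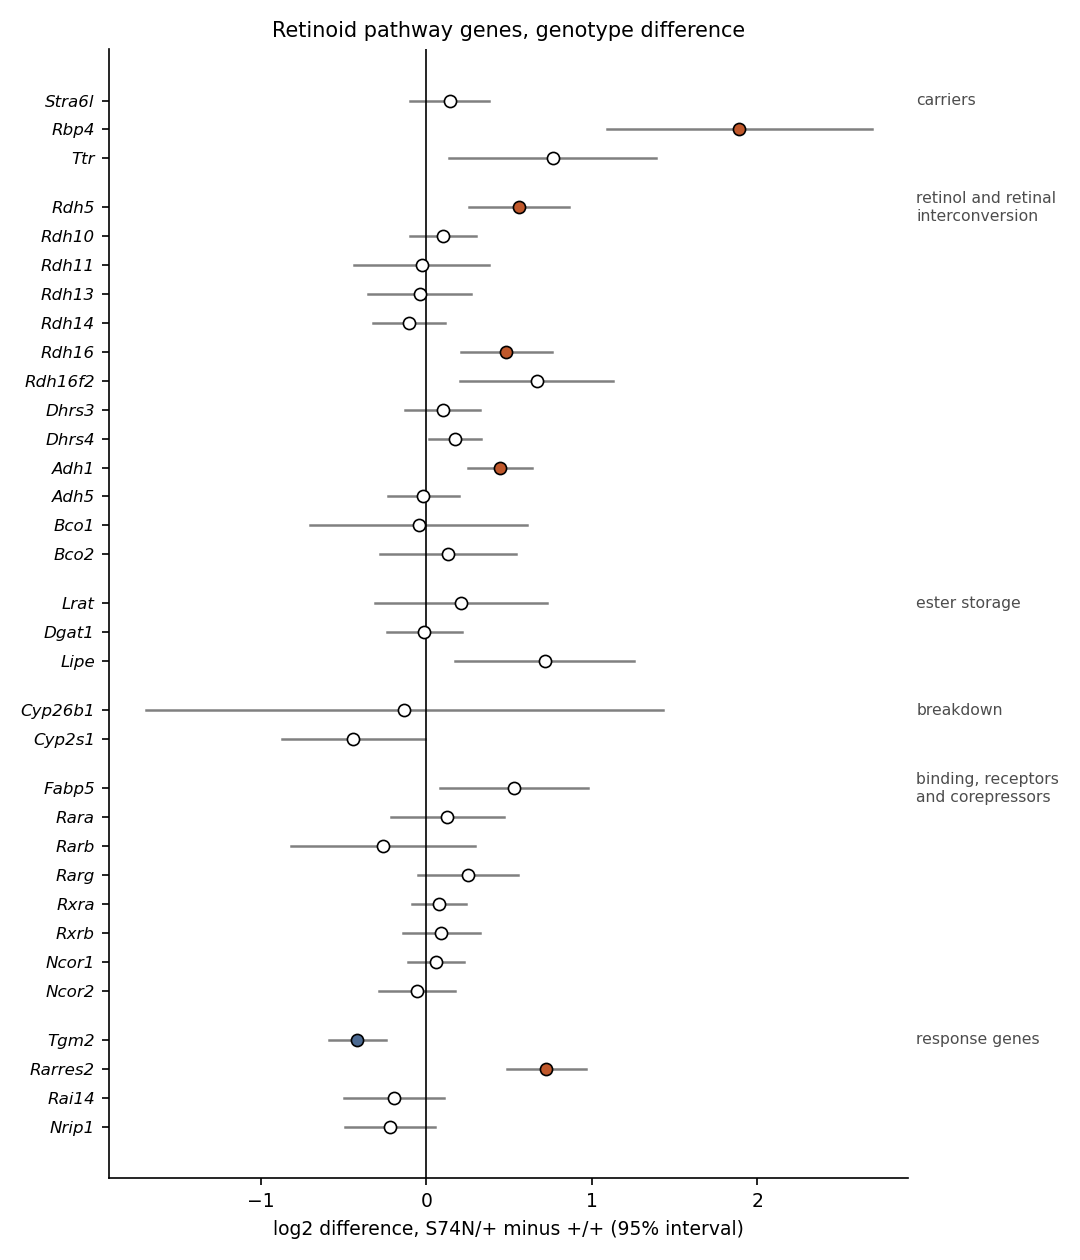
Log2 difference between Rragc S74N/+ and Rragc +/+ kidneys (x axis, n = 5 per genotype) for retinoid pathway genes, grouped by role, with limma estimates (points) and 95% intervals (bars). Filled points passed the adjusted threshold of 0.05. They are Rbp4, Rdh5, Rdh16, Adh1 and Rarres2 to the right of 0 and Tgm2 to the left, and no receptor is among them.

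None of the 8 binding proteins, receptors and corepressors passed in limma, and 1 of them, Fabp5, had an unadjusted p under 0.05. The receptor Rara differed by 0.13, Rarb by -0.26, Rarg by 0.25, Rxra by 0.08 and Rxrb by 0.09 on the log2 scale, and for Rxra the interval ran from -0.09 to 0.24. Of the Cyp26 enzymes, which degrade retinoic acid, Cyp26b1 was in the table. It was at 56.6, 83.6, 13.6, 339.8 and 318.2 in Rragc +/+. In Rragc S74N/+ it was at 44.6, 31.6, 315.3, 232.3 and 43.8. In each genotype 2 kidneys lay above 200 and 3 below 100. The difference was -0.13, with an interval of -1.69 to 1.43, which leaves the gene without a usable estimate.

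Genes known to respond to retinoic acid went both ways. Of 8 read here, Rarres2, which encodes chemerin, rose from 196 to 253 in Rragc +/+ to 317 to 467 in Rragc S74N/+ (log2 difference 0.73 ± 0.11, limma adjusted p = 0.000807). Tgm2, a transglutaminase, fell from 1770 to 2050 to 1307 to 1685 (difference -0.42 ± 0.08, limma adjusted p = 0.00528). Both were separated between genotypes and both kept their call whichever mouse was left out. The other 6 did not pass, among them Rarb, Cyp26b1, Lrat and Dhrs3, and the median of the 8 was -0.16. Cyp26a1, Stra6, Crabp1 and Crabp2 were not analysed here.

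The genes that work beside the other members were read from 5 lists, with 65 tested genes once the members were left out. Of these 8 passed as higher and 6 as lower in Rragc S74N/+, against 1.67% higher and 2.02% lower over all tested genes. The 8 include Adh1, which was also counted above among the retinoid genes. The 14 calls fell to 8 without Rragc +/+ mouse 4, to 9 without Rragc +/+ mouse 5 and to 9 in the second run alone. Limma without the trend called 6 of them (Prodh, Oat, Got1, Bhmt, Cyp2e1 and Acss1).

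Around Aldh4a1, the first steps of proline breakdown were lower although Aldh4a1 itself was not. Prodh, proline dehydrogenase, was at 704, 547, 657, 676 and 503 in Rragc +/+. The Rragc S74N/+ values were 400, 447, 436, 422 and 411. The groups did not overlap, and the log2 difference was -0.53 ± 0.10 (limma, adjusted p = 0.0037). Oat, ornithine aminotransferase, which feeds the same intermediate, was at 483 to 586 and 298 to 450 (difference -0.55, limma adjusted p = 0.00563). Prodh2, the hydroxyproline enzyme, was at 323 to 388 and 228 to 293 (difference -0.43, limma adjusted p = 0.0156), and Got1 at 362 to 480 and 191 to 308 (difference -0.66, limma adjusted p = 0.00403). The call of Prodh2 was lost without Rragc +/+ mouse 4 (limma, adjusted p = 0.0602), and those of Prodh2 and Got1 were lost in the second run alone (0.0672 and 0.0553). In all 4 every Rragc S74N/+ kidney lay below every Rragc +/+ kidney, and 6 of 10 genes of the list, Aldh4a1 among them, did not pass.

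Around Aldh7a1 and Aldh9a1, 3 of 11 genes passed, all of them higher. Chdh, which starts the oxidation of choline, was not among them (log2 difference 0.16, limma adjusted p = 0.513). Sardh, sarcosine dehydrogenase, was at 1842 to 2403 and 2458 to 3263, with no overlap (log2 difference 0.42, limma adjusted p = 0.0152). Dmgdh was at 521 to 654 and 579 to 987 (difference 0.45, limma adjusted p = 0.0457), and Bhmt, which uses betaine, at 15.9 ± 3.1 and 32.0 ± 7.8 (SD, n = 5, difference 0.95, limma adjusted p = 0.0325). Sardh lost its call without Rragc +/+ mouse 4 or 5 (limma, adjusted p up to 0.0618). Dmgdh kept its call when mouse 5 of Rragc S74N/+ was left out and lost it without any of the other 9 mice, and Bhmt kept it in 2 of 10 such fits. Around Aldh8a1, Haao (log2 difference 0.51, limma adjusted p = 0.0111) and Ido2 (0.59, limma adjusted p = 0.0424) were higher among 10 genes of tryptophan breakdown. The call of Ido2 held once when the 10 mice were left out in turn (limma, adjusted p up to 0.126), and in the second run alone it was not called (0.48, limma adjusted p = 0.177). Acmsd, whose product is the substrate of Aldh8a1, was at 697 to 863 and 542 to 772 and did not pass (difference -0.31, limma adjusted p = 0.126).

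Around Aldh6a1, 2 of 21 genes of valine and pyrimidine breakdown passed in opposite directions. Bcat1, a branched-chain aminotransferase, was at 142 to 278 and 289 to 481 (log2 difference 0.84, limma adjusted p = 0.011), and Bckdhb, a subunit of the branched-chain ketoacid dehydrogenase, at 309 to 408 and 235 to 311 (difference -0.39, limma adjusted p = 0.0483). Bckdhb kept its call in 2 of the 10 fits with a mouse left out (limma, adjusted p up to 0.131) and lost it in limma without the trend (0.125) and in the second run alone (0.0739). Around Aldh2, Cyp2e1, which forms acetaldehyde from ethanol, was higher at 3493 to 5474 against 2904 to 3333 (difference 0.55, limma adjusted p = 0.00376). Acss1, which activates acetate in mitochondria, was lower at 291 ± 31.6 against 738 ± 35.8 (SD, n = 5, difference -1.34, limma adjusted p = 5.14e-08). With Adh1, these were 3 of 18 genes of aldehyde and alcohol metabolism.

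The nephron segments differed between genotypes by their markers, and their part in the changes above was not tested. Of 13 proximal tubule markers 3 passed as higher (Slc22a6, Slc13a3 and Pck1), 3 as lower (Slc5a2, Slc5a12 and Gatm) and 7 did not pass, among them Slc34a1 (log2 difference 0.08), Lrp2 (-0.09) and Cubn (0.08). Their summed level was 74838 to 88201 in Rragc +/+ and 86019 to 106069 in Rragc S74N/+. Of 9 proximal tubule genes that differ between the sexes, 2 were higher and 7 did not pass, with sums of 249911 to 329626 and 302685 to 378205. The 2 were Cyp4a14, a fatty acid hydroxylase, at 77.1 to 176 and 418 to 3138 (log2 difference 3.23, limma adjusted p = 4.02e-05), and Cyp2d9 (0.62, limma adjusted p = 0.0138). Like Aldh1a1, Cyp4a14 was lowest in mouse 3 and highest in mouse 5 among the Rragc S74N/+ kidneys, whereas Cyp2d9 was highest in mouse 3 and lowest in mouse 5. The 4 thick ascending limb markers had sums of 28383 to 37142 and 13116 to 21455, with no overlap. Of them Umod, or uromodulin, was lower at 7760 to 13505 against 20405 to 28356 (limma, adjusted p = 0.000198), Cldn16 was higher (log2 difference 0.82, limma adjusted p = 0.0028) and 2 did not pass. All 3 distal convoluted tubule markers (Pvalb, Slc12a3 and Trpm6) were lower, with sums of 2676 to 3180 and 978 to 1327. Of the principal cell markers 1 of 5 was higher, with sums of 1397 to 1778 and 1833 to 3032. Of the intercalated cell markers 2 of 5 were lower (Slc4a1 and Atp6v0d2), with sums of 1294 to 1366 and 1017 to 1233. Of the podocyte and parietal cell markers 1 of 5, Synpo, was higher, with sums of 936 to 1127 and 1088 to 1235. With each mouse left out in turn Synpo was called 5 times and the principal cell gene Hsd11b2 4 times, and neither was called in limma without the trend (adjusted p = 0.0952 and 0.157). Markers of leukocytes (5 in the table), stroma (5) and endothelium (5) gave 0 calls in limma, of which Cd68 and Kdr had an unadjusted p under 0.05.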

How the data were processed

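The authors aligned QuantSeq 3′ reads to GRCm39 with TopHat2 2.0.10, Bowtie 1.0.0 and SAMtools 0.1.19, allowing several hits per read. They counted strand-specific reads per gene with HTSeq 0.6.1 on GENCODE vM26. The deposited values are a signal, namely read counts after DESeq size-factor scaling, for 13837 genes, with no gene below a mean of 5.64. All 10 value columns were matched to mice. Whole reads were recovered for 100% of values, within a tolerance of 0.01 reads. Because near-identical copies can gain or lose reads, the values of Aldh1a1, Aldh1a7, Aldh3b2 and Aldh3b3 are uncertain.

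Genotypes were compared with limma 3.58.1 in R 4.3.3 (lmFit, eBayes with trend, two-sided, no covariate) on log2(value + 1), which understates changes of low genes. Single values were compared by exact permutation over all splits of the mice. On the recovered reads, edgeR 4.0.16 and DESeq2 1.42.0 were alternatives. Fits were tested on simulated data. Samples labelled as separate mice are the replicates.

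Members and gene lists were chosen with earlier results of these data known. Every member is named, together with the called genes of each pathway list (at most 4), the called or defining genes of marker lists, the retinoic acid receptors and the Cyp26 genes. Further genes were named after their values had been seen. A further listed gene is not reported here. Alternatives were pseudocounts of 0.5 and 5, no filter, a mean of at least 50, TMM or quantile scaling, limma without trend or with robust variances, the run of library codes as a covariate, the second run alone, and leaving out each mouse.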

Additional observations from a re-analysis of the deposited data

Results flagged for a closer look

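In groups of 5 mice, a value far from the other 4 was looked for in the 14 members, the called pathway genes, the receptors, Cyp26b1, Ttr, Upk3a and Krt19 (84 groups), the last 3 genes taken after their values had been seen. Chance gives about 1 in 20 groups where genes are not picked by their values. The 5 found include Ttr, Upk3a and Krt19, so this count cannot be set against that rate. Of the 28 member groups, 1 held such a value, Aldh1a3 in Rragc S74N/+ mouse 5 at 258.8 normalized counts against 21.7 to 64.1 in the other 4. The same mouse was far above the rest for Ttr (4588 against 993 to 1348), Upk3a (219.9 against 33.6 to 82.7) and Krt19 (96.3 against 14.2 to 24.2). Rara in Rragc S74N/+ mouse 1 was the fifth, at 54.1 against 73.4 to 78.8, a low value. Mouse 5 also had the top Aldh1a1, Aldh1a7, Aldh1a2 and Rbp4.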

How the results depend on the processing

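Fitting limma without the trend called 291 genes in place of 487. Among them were 1 member and 1 gene of the Aldh1a class (Aldh1a2), and 6 partner genes. The 1 retinoid gene called there was Rbp4, which had to differ, so none of the other 28 passed. Adjusted p was then 0.0594 for Aldh1a1 (difference 1.51), 0.0872 for Aldh1a7 (1.07) and 0.130 for Aldh2 (0.35). The second run alone gave 2 members, 1 Aldh1a gene, 2 retinoid genes (Rbp4 and Adh1) and 9 partner genes. Aldh1a1 was then at 1.61, Aldh1a7 at 0.97 and Aldh3b1 at 0.052, with a change of sign for Aldh3b1. The sum of Aldh1a1 and Aldh1a7 there was 1.17 (exact p = 0.0571, where 0.0286 is the smallest possible). A covariate for the run called 832 genes, and Aldh9a1 passed at 0.30. A mean of at least 50 left 2 retinoid genes called and no value for Aldh1a2 and the Aldh3b class. Quantile scaling put Aldh2 at 0.30 (adjusted p = 0.0507) and turned Aldh3b1 to 0.0084 and Aldh8a1 to -0.0482. On the recovered reads edgeR called 480 and DESeq2 648 genes, each with the same 4 members, and put the uncalled Aldh1a3 at 1.06 and 1.05 in place of 0.56. Adjusted p of Aldh2 was 0.0476 in edgeR and 0.00728 in DESeq2. Aldh9a1 (0.26) had an exact permutation p of 0.0238.

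With each mouse left out in turn, calls ran from 298 to 469 genes, 2 to 4 members and 2 to 3 Aldh1a genes. They ran from 2 to 4 retinoid genes with Rbp4 counted, and from 8 to 14 partner genes. Aldh1a1 ran from 1.21 to 1.74, Aldh1a2 from 1.07 to 1.34, Aldh1a7 from 0.84 to 1.25, Aldh2 from 0.30 to 0.41 and the Aldh1a1 and Aldh1a7 sum from 0.96 to 1.42. Signs of uncalled members changed within Aldh1a3 (-0.0438 to 0.88), Aldh3a2 (-0.17 to 0.0277), Aldh3b1 (-0.11 to 0.11), Aldh4a1 (-0.0012 to 0.13), Aldh6a1 (-0.0339 to 0.26) and Aldh8a1 (-0.0081 to 0.0800). The cause was not tested. No setting moved the median of all genes by more than 0.01. Aldh1a2, Aldh3b2 and Rbp4 rest on few reads, which limits their precision. No paired analysis was made. The mouse numbers used here repeat in both genotypes, but nothing in the labels ties them to a litter, day or batch.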
